A study of Bos taurus with 2 samples.

Results

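The cluster of mir-183, mir-96 and mir-182, and mir-375, were followed in small RNA sequencing of the bovine mammary gland. The members were taken by name, as every entry of the table of known bovine miRNAs that belongs to the mir-183, mir-96, mir-182 or mir-375 precursor, with both arms where listed. This gave 4 of the 283 known miRNAs, among 884 unique miRNAs in all, with 1 arm for each precursor. The names were not chosen by a measured threshold, but they were picked with earlier results of these data known.

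The lactation library came from the gland of 1 cow aged 6 years that had been in milk for 2 months. The non-lactation library came from 1 cow aged 4 years that was neither lactating nor pregnant, and both cows had calved more than once. Stage, animal and age therefore cannot be told apart, and no difference could be checked in replicates. Reads were compared by Fisher's exact test (two-sided, Bonferroni over 883 miRNAs, threshold 0.05), which speaks of these libraries and not of the conditions. The tissue was whole gland, so fewer cells of a type and less RNA per cell cannot be told apart either. Levels are reads of the most abundant sequence per 1000000 clean reads (RPM), and each ratio divides the lactation RPM by the non-lactation RPM. In brackets after a value stands its exact 95% interval (Clopper-Pearson). It covers counting error alone and treats each read as a separate molecule, which copies made by PCR are not, so it can be too narrow. Variation between animals and between library preparations is not in it. Such sequences summed to 5745961 reads in lactation and 7879028 in non-lactation, and 1 read was worth 0.0836 and 0.0626 RPM.

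A miRNA guides a silencing complex to messenger RNAs that pair with its seed, bases 2 to 8 from the 5′ end. mir-183, mir-96 and mir-182 are made from 1 long transcript in vertebrates and are best known from sensory cells of the ear and eye, and mir-96 mutations cause hearing loss. mir-375 is best known from the endocrine cells of the pancreatic islets, where it restrains insulin release, and it is also abundant in many secretory epithelia.

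The most abundant sequence of each member, as deposited, shows what was counted, with the seed in capitals.
mir-183-5p: aUGGCACUgguagaauucacug
mir-96-5p: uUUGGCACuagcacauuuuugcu
mir-182-5p: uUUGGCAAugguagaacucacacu
mir-375-3p: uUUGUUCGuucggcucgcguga

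The 3 cluster members shared the letters UGGCA within their first 8 bases, which only 7 of the 283 known miRNAs (2.47%) did. The other 4 were mir-1271-5p, mir-2320-5p, mir-34a-5p and mir-449a-5p. mir-96 and mir-182 were identical over their first 7 bases and then diverged, with 12 of 23 aligned bases the same. mir-183 and mir-182 were alike over their whole length, with 17 of 22 aligned bases the same (77.3%), whereas mir-183 and mir-96 shared 12 of 22. mir-375 was unrelated, with at most 8 of 22 aligned bases in common with a cluster member.

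UGGCA began at base 2 in the listed mir-183 and at base 3 in mir-96 and mir-182. The target sequences that the study listed for its array give mir-183 and mir-375 with 1 more base at the 5′ end, and a miRNA that starts 1 base earlier has a seed shifted by 1 base. These longer forms are shown for comparison, again with bases 2 to 8 in capitals.
mir-183 array target: uAUGGCACugguagaauucacug
mir-375 array target: uUUUGUUCguucggcucgcguga

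With the longer form UGGCA stood at base 3 in all 3 cluster members. mir-182 had the same sequence in both sources, and mir-96 was not matched to a target. Of the 183 known miRNAs that could be matched to a target over at least 14 bases, 164 began at the same base, 10 began 1 base later in the read table and 6 began 1 base earlier. mir-183 and mir-375 were 2 of those 10.

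The precursor listed for mir-183 shows where this base lies, with the sequences of both arms in capitals.
mir-183 precursor: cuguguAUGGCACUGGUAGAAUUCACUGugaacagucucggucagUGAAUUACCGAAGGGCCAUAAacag

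The listed 5p arm spanned bases 7 to 28 of this precursor, and the base before it was a U. The array target begins at that U, base 6. The 3p arm at bases 46 to 66 was listed apart, as the candidate CN-442-3p, with 0 reads in lactation and 4 in non-lactation. The lowest listed value above 0 was 3 reads, so a listed 0 may hide fewer than that, or less than 0.251 RPM there. No other arm of mir-96, mir-182 or mir-375 was listed. Sequences outside the most abundant one were counted in the tables but not spelled out, so the share of reads that began at the earlier base was not measured here.

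In the deposited coordinates (BTA 4.0) the cluster lay on the minus strand of chromosome 4. The precursors were at chr4:96835927-96835996 for mir-183, chr4:96835689-96835791 for mir-96 and chr4:96831184-96831294 for mir-182. Read along the strand the order was mir-183, mir-96, mir-182, over 4813 bases, with 135 bases between the first pair and 4394 between the second. mir-375 lay on the minus strand of chromosome 2, at chr2:111347583-111347646. In the RefSeq annotation of a later assembly (ARS-UCD2.0) none of the 4 lay inside an annotated gene, so all were intergenic there. The nearest coding genes were NRF1 and LOC132345191 beside the cluster, and CRYBA2 and CFAP65 beside MIR375.

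The nearest listed precursors on either side of both loci lay far off. Within 10 kb of the cluster the only other listed entry was the 3p arm of mir-183, and within 10 kb of mir-375 there was none. The next precursor above the cluster, 657659 bases away on the other strand, gave mir-335-5p with 25 reads in lactation and 33 in non-lactation, and its other arm CN-443-3p with 3 and 6 reads. The next below gave mir-592-5p, 2325811 bases away, with 3 reads in lactation and 0 in non-lactation. None of these was more abundant than mir-96.

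The next precursor below mir-375, 534811 bases away on the other strand, carries mir-26b-5p, which was more abundant than mir-375 in both libraries. mir-26b-5p held 108006 reads in lactation and 118498 in non-lactation, with a ratio of 1.22 (1.21 to 1.23), and its other arm CN-468-3p held 7 and 8 reads. The next entry above mir-375 was CN-473-3p, 4523394 bases away, with 0 and 4 reads.

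mir-375 was abundant in both libraries and far higher in the lactation library. It held 33308 reads in lactation and 3200 in non-lactation, or 2784 RPM (2754 to 2814) and 200.4 RPM (193.5 to 207.5). It ranked 20 of 283 known miRNAs in lactation and 58 in non-lactation. The ratio was 13.9 (13.4 to 14.4), a log2 ratio of 3.80, and it passed Fisher's exact test.

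mir-96 was the highest of the cluster and close to the same level in both libraries. It held 130 reads in lactation and 165 in non-lactation, or 10.9 RPM (9.08 to 12.9) and 10.3 RPM (8.82 to 12). The ratio was 1.05 (0.829 to 1.33) and the adjusted p of Fisher's exact test was 1. Its side of 1 turned with the scaling, to 0.877 with TMM factors, 0.864 with DESeq2 size factors and 0.788 without scaling.

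mir-182 was lower, with 30 reads in lactation and 48 in non-lactation. These were 2.51 RPM (1.69 to 3.58) and 3.01 RPM (2.22 to 3.99), and the ratio was 0.834 (0.510 to 1.34).

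mir-183 was near the lower end of what the libraries could measure, with 8 reads in lactation and 14 in non-lactation. These were 0.669 RPM (0.289 to 1.32) and 0.877 RPM (0.479 to 1.47), and the ratio was 0.763 (0.277 to 1.95). For both mir-182 and mir-183 the adjusted p of Fisher's exact test was 1 and the interval held 1, so no difference of either was detectable at this depth.

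**Figure D1:**
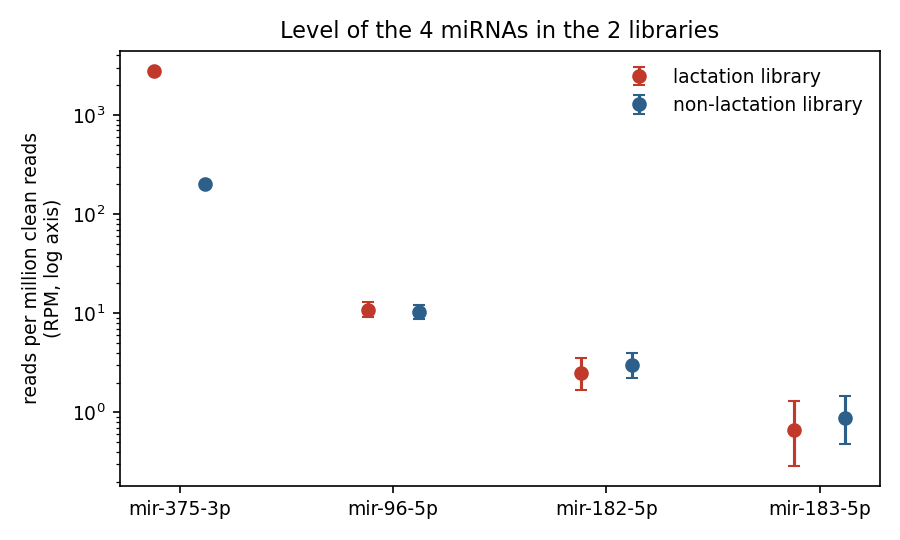
RPM of the most abundant sequence of each member in the lactation and non-lactation libraries, on a log axis; points are single libraries and bars are exact 95% counting intervals. mir-375 stands at 2784 and 200.4 RPM, while the intervals of mir-96, mir-182 and mir-183 overlap between the libraries.

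The order of levels was the same in both libraries, namely mir-375, mir-96, mir-182 and mir-183, and no neighbours in this order had overlapping intervals within a library. The cluster members ranked 142, 190 and 226 of 283 known miRNAs in lactation and 133, 187 and 213 in non-lactation, in the order mir-96, mir-182, mir-183. The median of the known miRNAs listed was 167 reads in lactation and 160.5 in the non-lactation library, so each cluster member but mir-96 in the non-lactation library was below the median. The summed cluster held 168 and 227 reads, or 14 and 14.2 RPM, and its ratio was 0.988 (0.804 to 1.21). mir-375 had 198 times the reads of the whole cluster in lactation and 14.1 times in the non-lactation library.

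Within the cluster the reads were unevenly divided. mir-96 held 77.4% of the cluster's reads in lactation and 72.7% in the non-lactation library, mir-182 held 17.9% and 21.1%, and mir-183 held 4.76% and 6.17%. Over all isomiRs, the length and sequence variants of a miRNA, the division was less uneven. mir-96 then held 64.9% and 52.9%, mir-182 27.2% and 35.5%, and mir-183 7.85% and 11.6%. The order within the cluster was the same by either count.

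**Figure D2:**
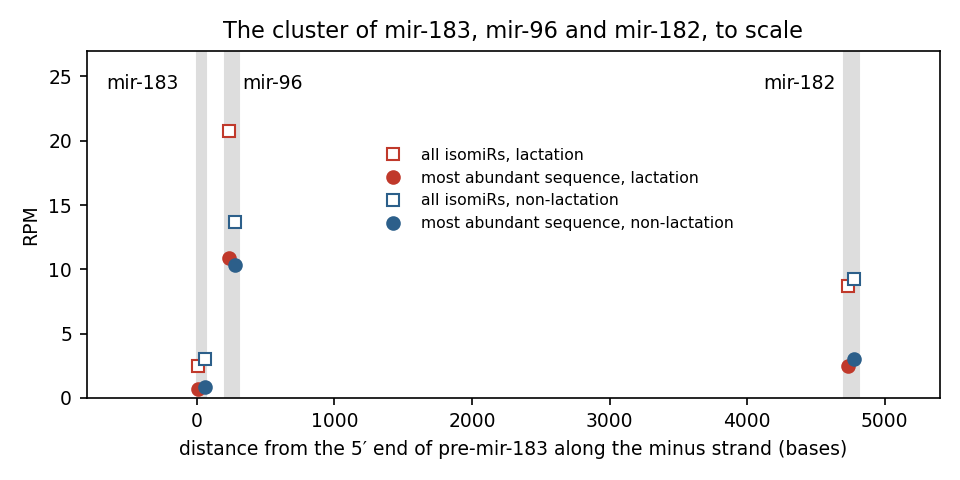
RPM of the cluster members (vertical axis) at their distance in bases from the 5′ end of the mir-183 precursor along the minus strand (horizontal axis), with precursors as grey bars to scale; filled circles are the most abundant sequence and open squares all isomiR reads. mir-96 is highest in both libraries, and its open squares stand at 20.7 RPM in lactation and 13.7 RPM in non-lactation, while those of the other members lie close together.

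Among the 36 clusters of known miRNAs with gaps of at most 10 kb, this cluster ranked 33 by summed RPM in both libraries, where the medians were 488 and 753 RPM. Its log2 ratios spanned a range of 0.46. The median range over the 33 clusters with more than 1 member of at least 20 summed reads was 1.18, and 9 had a smaller range. A range tends to grow with the number of miRNAs counted, which was 3 here and 2 in each of those 9. This place among the 33 is thus not a comparison of like with like. By the most abundant sequence the 95% intervals of its members' ratios all overlapped. By isomiR reads those of mir-96 (1.26 to 1.82) and mir-182 (0.727 to 1.22) did not, while that of mir-183 (0.510 to 1.34) overlapped both.

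All isomiR reads gave deeper counts of the cluster. mir-182 then held 104 reads in lactation and 147 in non-lactation, with a ratio of 0.944 (0.727 to 1.22). mir-183 held 30 and 48 reads, with a ratio of 0.834 (0.510 to 1.34). mir-96 held 248 and 219 reads, or 20.7 and 13.7 RPM, with a ratio of 1.51 (1.26 to 1.82). For mir-96 this count passed the test that its most abundant sequence did not, with an adjusted p of 0.0066 by Fisher's exact test (Bonferroni over 781 miRNAs with isomiR sums). The call rested on the scaling, since the isomiR ratio of mir-96 was 1.26 (1.05 to 1.52) with TMM factors, 1.24 (1.03 to 1.5) with DESeq2 size factors and 1.13 (0.940 to 1.36) without scaling, each with an adjusted p of 1 by the same Fisher's exact test. mir-375 held 51013 and 5021 isomiR reads, and its ratio of 13.6 (13.2 to 14) was close to that of its most abundant sequence. Scaled to the clean reads, the summed cluster had a ratio of 1.23 (1.07 to 1.42) by isomiR reads, to which mir-96 gave most reads. The ratio of the sum was not computed with TMM factors, DESeq2 size factors or no scaling. Each of these lowers it by the same factor as every member's ratio, which for mir-96 took 1.51 to 1.26, 1.24 and 1.13. A rise of the summed cluster was therefore not shown under them.

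mir-96 differed between the libraries in how its reads were spread over isomiRs. Its most abundant sequence held 130 of 248 isomiR reads in the lactation library (52.4%, 46.0% to 58.8%) and 165 of 219 in the non-lactation library (75.3%, 69.1% to 80.9%). The share was 22.9 points lower in lactation, the third most negative change among the 176 known miRNAs with at least 100 isomiR reads in each library. The reads of mir-96 outside its most abundant sequence numbered 118 and 54, a ratio of 2.92 (2.10 to 4.10). A lower share with intervals apart was itself common, since 53 of the 176 known miRNAs (30.1%) had one and 42 had a higher share, whereas 6 changed by at least 20 points. Of the 3 members deep enough for this count, mir-96 alone had intervals apart.

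The other members kept closer shares. The most abundant sequence of mir-375 held 65.3% of its isomiR reads in the lactation library (64.9% to 65.7%) and 63.7% in the non-lactation library (62.4% to 65.1%). That of mir-182 held 28.8% (20.4% to 38.6%) and 32.7% (25.2% to 40.9%), and that of mir-183 held 26.7% (12.3% to 45.9%) and 29.2% (17% to 44.1%). Intervals overlapped for each of these 3. The median share over the 176 known miRNAs was 45.0% in lactation and 45.2% in the non-lactation library, so mir-375 and mir-96 lay above it and mir-182 and mir-183 below it in both libraries.

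**Figure D3:**
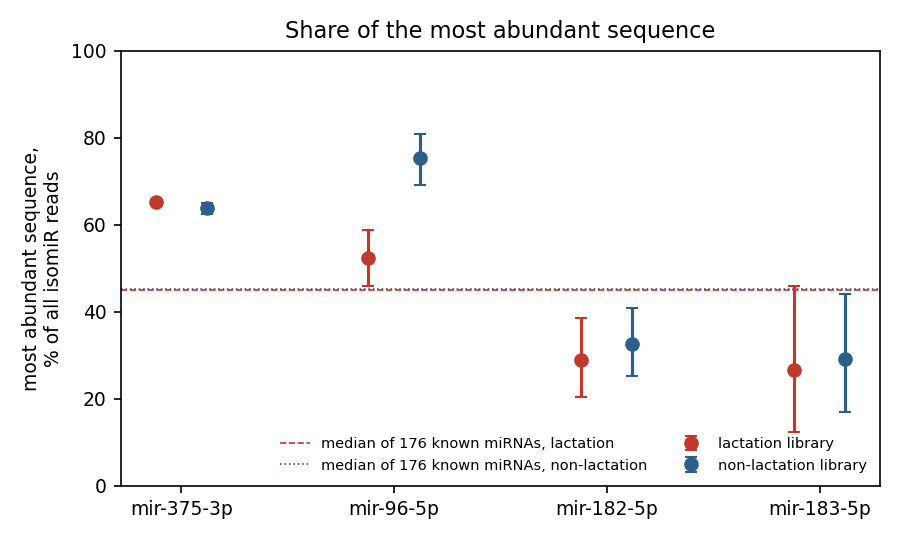
Share of the most abundant sequence in all isomiR reads of each member (percent) in both libraries, with exact 95% intervals as bars and the medians of 176 known miRNAs as lines. The intervals of mir-96 do not meet (52.4% in lactation and 75.3% in non-lactation), and those of the other members overlap.

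The number of distinct isomiRs of each member was read against known miRNAs with isomiR reads within 1.5 times of its own, since more reads give more forms; here the values after a median are the lowest and highest of those miRNAs. mir-375 had 157 forms in the lactation library, where 14 such miRNAs had a median of 166, from 120 to 255. In the non-lactation library it had 45 forms, where 17 such miRNAs had a median of 26, from 18 to 52. mir-183 had 5 and 8 forms, and in the non-lactation library all 14 miRNAs of like depth had fewer, with a median of 4. mir-182 had 9 forms in each library, against medians of 7. mir-96 had 7 and 6 forms, against medians of 8 and 8.5.

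mir-375 was the only one of the 4 members past the thresholds used for all miRNAs. It was 1 of 29 of 273 miRNAs with at least 100 summed reads (10.6%) that were at least 4-fold higher in lactation, while 16 (5.86%) were at least 4-fold lower. The split was 26 higher and 25 lower with TMM factors, 26 and 26 with DESeq2 size factors and 24 and 29 without scaling. mir-96 also had 100 summed reads and lay inside both bounds, and mir-182 and mir-183 did not have the reads to be counted. By Fisher's exact test 154 of 883 miRNAs (17.4%) were higher in lactation, mir-375 among them, and 96 (10.9%) were lower, with no member among them. Most of the 883 had fewer than 100 summed reads, and miRNAs with few reads can hardly pass this test.

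By size the ratio of mir-375 was the eighth of the 273 and the third of 188 known miRNAs with at least 100 summed reads, after mir-133a-3p and mir-141-3p. Both of these were much scarcer. mir-133a-3p, of striated muscle, held 1027 reads in lactation and 68 in non-lactation, and mir-141-3p held 3873 and 302. The ratio of mir-96 was 147th of 273, and the median log2 ratio of the 273 was 0.24.

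**Figure D4:**
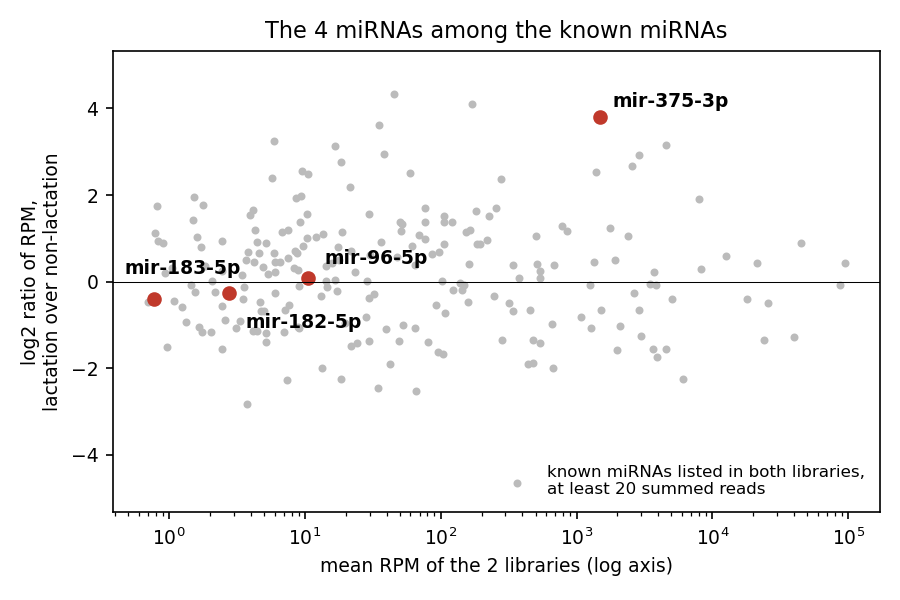
Log2 of the RPM ratio between lactation and non-lactation (vertical axis) against the mean RPM of the libraries on a log axis, for the 221 known miRNAs listed in both libraries with at least 20 summed reads. mir-375, at a log2 ratio of 3.80, is passed only by the scarcer mir-141-3p and mir-133a-3p, while the cluster members lie near 0 at low levels.

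The closest log2 ratio to that of mir-375 among known miRNAs with at least 100 summed reads was that of mir-20b-5p, at 3.63, followed by mir-141-3p at 4.10 and mir-133a-3p at 4.33. The closest to mir-96 (0.07) were mir-16a-5p, mir-186-5p and mir-34c-5p, with log2 ratios of 0.09, 0.09 and 0.04. The closest to mir-182 were let-7d-5p, mir-455-3p and mir-196a-5p, between -0.28 and -0.25. Those closest to mir-183 were let-7i-5p, mir-21-5p and mir-379-5p, between -0.41 and -0.37. These likenesses rest on 1 ratio from 2 libraries.

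mir-1271-5p is the other known miRNA with the seed of mir-96, UUGGCAC, and no other member shared its seed with a listed miRNA. Its sequence is shown to set beside mir-96, with the seed in capitals.
mir-1271-5p: cUUGGCACcuaguaaguacuca

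It comes from another locus, on the plus strand at chr7:37163625-37163710, and it was scarce, with 6 reads in lactation and 23 in non-lactation. Its ratio was 0.348 (0.116 to 0.880), with an adjusted p of 1 by Fisher's exact test. mir-96 therefore held most reads of that seed in both libraries.

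Ratios between members within a library do not depend on the library totals. Over the 6 pairs of members, mir-375 rose 13.2 times against mir-96 (10.4 to 16.8), 16.7 times against mir-182 (10.3 to 27.3) and 18.2 times against mir-183 (7.12 to 50.1), lactation over non-lactation. By all isomiR reads these were 8.97 (7.43 to 10.8), 14.4 (11.1 to 18.7) and 16.3 (10.1 to 26.6). Within the cluster the ratio of mir-96 to mir-182 was 1.26 times higher in lactation (0.736 to 2.18), that of mir-96 to mir-183 1.38 times (0.521 to 3.91) and that of mir-182 to mir-183 1.09 times (0.374 to 3.39). All 3 intervals held 1. By isomiR reads the ratio of mir-96 to mir-182 was 1.60 times higher (1.16 to 2.21) and that of mir-96 to mir-183 1.81 times (1.08 to 3.07), and these intervals did not hold 1.

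The mir-200 family, which keeps cells epithelial, stands for the luminal epithelium here. Its 5 members were all higher in lactation by Fisher's exact test. So were 17.4% of all 883 miRNAs, most of which had fewer than 100 summed reads. The log2 ratios of the family ran from 1.15 for mir-429-3p to 4.10 for mir-141-3p, with a median of 2.53. mir-375 therefore lay inside the range of the family, and the 3 cluster members lay below all of it. Within a library mir-375 rose less than mir-141-3p, 0.812 times (0.716 to 0.918), but by isomiR reads the interval held 1 (0.990, 0.923 to 1.06). It rose more than the other 4, by 1.56 times against mir-200c-3p (1.5 to 1.63), 2.41 times against mir-200b-3p (2.30 to 2.52), 5.71 times against mir-200a-3p (5.45 to 5.98) and 6.25 times against mir-429-3p (5.80 to 6.73). Against mir-200b-3p the isomiR reads gave a larger value, 4.26 times (4.12 to 4.40).

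**Figure D5:**
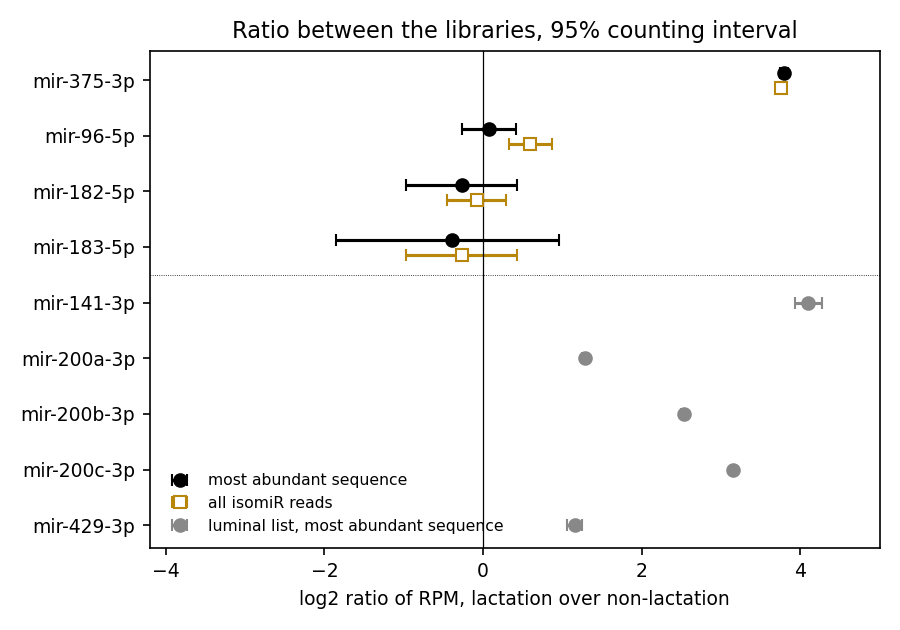
Log2 of the RPM ratio between lactation and non-lactation for the 4 members by their most abundant sequence and by all isomiR reads, and for the 5 mir-200 family members, with 95% counting intervals. mir-375 stands at 3.80 between mir-200c-3p and mir-141-3p, the intervals of mir-182 and mir-183 cross 0, and that of mir-96 crosses 0 only by its most abundant sequence.

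The markers of other cell types moved as well, and their part in the values of mir-375 and the cluster was not tested. Entries are counted as higher or lower where they passed Fisher's exact test, as 17.4% and 10.9% of all 883 miRNAs did. Only 273 of the 883 had at least 100 summed reads, and miRNAs with few reads can hardly pass. These shares are thus a low bar for entries with many reads, for which no share was counted. The median log2 ratio of the 273 was 0.24. The luminal list summed to 12201 RPM in lactation and 1903 in non-lactation. The basal list summed to 197 and 741 RPM, and mir-205-5p and PC-203-3p of its 3 entries were lower (PC marks the table of miRNAs conserved in other mammals). The other entry, PC-31-5p, had a ratio of 0.286 (0.0527 to 1.02) and did not pass, and the median log2 ratio was -1.91. The striated muscle list summed to 4494 and 702 RPM, with a median log2 ratio of 1.79. All 5 of its listed entries had a ratio above 1, and 3 of them (mir-1-3p, mir-133a-3p and mir-499-5p) passed the test, while mir-208a and mir-208b were not listed. The fibroblast and smooth muscle list summed to 8640 and 14558 RPM, with 2 of 6 entries higher, 3 lower and a median log2 ratio of -0.59. The endothelial mir-126 was higher in both arms, at 487 and 165 RPM in sum. The blood list summed to 155 and 149 RPM, with 2 of 6 entries higher, 2 lower and a median log2 ratio of -0.54. These close sums hide opposite moves. The higher entries were mir-451-5p (ratio 2.50) and mir-486-5p (5.88), and the lower were mir-142-5p (0.500) and mir-142-3p (0.517). mir-223-3p and mir-150-5p did not pass, and mir-144 was not among the entries counted.

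mir-375 marks endocrine cells in other tissues, so miRNAs of endocrine and neuroendocrine cells were set beside it. mir-7-5p, which is also abundant in pancreatic islets, held 192 reads in lactation and 199 in non-lactation, with a ratio of 1.29 (1.05 to 1.58). mir-9-5p, of neurons and neuroendocrine cells, held 110 and 118 reads, with a ratio of 1.24 (0.951 to 1.63). mir-9-3p held 0 and 7 reads, and none of these 3 passed Fisher's exact test, with an adjusted p of 1 for each. mir-124a-3p, a miRNA of neurons and islets, held 1423 and 1184 reads, with a ratio of 1.60 (1.48 to 1.73) and an adjusted p of 2.19e-30 by Fisher's exact test. mir-153 was not listed. The list thus had 1 of 4 listed entries higher and none lower, a median log2 ratio of 0.34 and a sum of 144 RPM in lactation and 94.4 in non-lactation. mir-375, with a log2 ratio of 3.80, lay above the highest of them, 0.68.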

How the data were processed

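Small RNA was sequenced from 1 lactating and 1 non-lactating bovine mammary gland. The authors trimmed the adaptors, dropped reads of low quality or of other RNA types, mapped the rest with ACGT101-miR to miRBase 17.0 precursors and the genome BTA 4.0, and deposited read counts, for the most abundant sequence and for all isomiRs of each miRNA. The labels name Trizol and TruSeq, the study's methods a miRNeasy kit. The 2 cows and their ages come from those methods.

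Entries were grouped into 884 unique miRNAs, of which 883 had a value in both libraries. RPM used the clean reads given in the study as totals. For log2 ratios a listed 0 was set to 3 reads, the lowest listed value, and pairs with at most 3 reads in each library have no fold. RPM, ratios with their intervals and Fisher's exact test used the listed 0. With 1 library per condition no dispersion could be estimated, so no count model was fitted. Reads were compared with Fisher's exact test against the other clean reads. Ratios have Clopper-Pearson intervals conditional on the summed reads, and ratios of ratios have exact conditional intervals of the odds ratio. A 4-fold rule with at least 100 summed reads gave the background. IsomiR alternatives used the 781 known and candidate miRNAs with usable sums. In the candidate table isomiR reads and kinds were taken from the columns whose values fit them, and isomiR columns of the conserved table were not used. Methods were tested on simulated counts with counting error alone, so variation between animals and copies made by PCR were not covered.

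The members, the marker lists and the tests were chosen with earlier results of these data known. Named besides the members are entries of the same precursor, within 10 kb or next on each side, entries with the same seed, the 3 known miRNAs of closest log2 ratio, and members of the lists, which are luminal, basal, endocrine, striated muscle, fibroblast and smooth muscle, endothelial and blood. The array target sequences come from the study's supplement, as sequences only. RefSeq names and neighbours are from ARS-UCD2.0, and the positions printed are as deposited. Alternatives were other totals (sum of listed reads, TMM, DESeq2, none), isomiR reads, other read minimums and folds, and Benjamini-Hochberg adjustment; isomiR reads with the other totals were added after seeing the data. Scaling factors, from the most abundant sequences, came from DESeq2 1.42.0 and edgeR 4.0.16 in R 4.3.3. All else ran in Python 3.11.15 (scipy 1.17.1, numpy 2.4.6, matplotlib 3.10.9, pandas 2.3.3). Folding, targets, reads and RT-PCR were not analysed here.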

Additional observations from a re-analysis of the deposited data

How the results depend on the processing

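mir-375 kept its direction and passed the test under each of the 6 alternatives of its most abundant sequence or isomiR reads, with ratios from 10.4 to 14.3, and mir-182 and mir-183 stayed below 1 and did not pass in any. The direction of mir-96 turned with the scaling, to ratios of 0.877 with TMM factors, 0.864 with DESeq2 size factors and 0.788 without scaling, none of which passed, while by all isomiR reads its ratio was 1.51 and passed. In a combination chosen after seeing the data, isomiR reads with the sum of listed reads as totals gave 1.55 and passed, whereas with TMM factors, DESeq2 size factors or no scaling its isomiR ratio stayed above 1 and did not pass. These scalings moved the median log2 ratio of the 273 miRNAs by -0.26, -0.28 and -0.42. A change of totals moves every log2 ratio alike, so that of mir-96 less the median is fixed by arithmetic and is no check. The 16 miRNAs at least 4-fold lower became 25 with TMM factors, 26 with DESeq2 size factors and 29 without scaling. The 29 at least 4-fold higher became 58 with at least 20 summed reads and 90 with no minimum, and at 2-fold the counts were 79 higher and 62 lower. By isomiR reads the rise of mir-375 was 8.97 times against mir-96, 0.990 times against mir-141-3p, 4.26 times against mir-200b-3p, 1.26 times against mir-200c-3p and 6.77 times against mir-429-3p. For each of these shifts the cause was not tested. Of 69 alternative values 52 were counted as the same, 12 moved, 2 passed the test where the main value did not and 3 turned direction. A member ratio was the same if it kept both its side of 1 and its test call. Counts had to stay within 1.5 times, ratios of ratios within the main interval and median shares within the standard deviation over miRNAs. No paired analysis was possible because each condition had 1 library, and no replicate could be left out. Depth limits mir-183 most, with 22 summed reads.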
